A study of Apostichopus japonicus with 9 samples.

Results

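Of 13933 gene models tested in respiratory tree tissue of Apostichopus japonicus, a sea cucumber, 87 stood apart at the intermediate oxygen level only, 38 of them higher and 49 lower there. They were picked by their levels. All 3 libraries from about 4 mg/L dissolved oxygen (DO4) had to lie above, or all below, the 6 libraries from about 2 mg/L (DO2) and 8 mg/L (DO8). The DO4 mean had to differ at least 2-fold from each of the other means, and the DO2 and DO8 means had to be within 1.5-fold of each other. The mean over all 9 libraries had to be at least 5 CPM (counts scaled to a common library total with TMM factors), and the DO8 mean below 1000 CPM. The levels that chose these models are therefore given as a description, with no p-value for any of them. In counts simulated with no difference between the groups and 1 wide spread for all models, the same rule picked no fewer models than here. That wide spread was close to the common spread estimated from these libraries. With a narrow spread, not estimated from these libraries, the rule picked far fewer. The models here differ in spread, so neither setting gives the number to be picked without a difference. Membership alone is therefore not evidence of a difference in DO4.

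The respiratory tree is a branched organ in the body cavity of sea cucumbers that takes up oxygen from sea water pumped in and out of it. In animals generally, low oxygen acts through the hypoxia-inducible factor, a transcription factor that is degraded when oxygen is plentiful and that raises genes of glycolysis, oxygen transport and iron handling when it is scarce. A transcript that differs at an intermediate oxygen level and not at a lower one does not follow the oxygen level in 1 direction. The identifiers name a scaffold and a number only, and 0 of the 27214 listed matched the 30661 RefSeq genes of this species. None of the 87 models can be given a gene name, a function or a sequence here.

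Animals of the DO4 and DO2 groups were held for 3 days in sea water whose oxygen was brought down gradually with nitrogen. DO8 animals were held in high-oxygen water as the control, also for 3 days. Each group gave 3 libraries of poly(A) RNA, each from respiratory tree RNA of 3 animals pooled in equal amounts. Strain, age and tanks are not given in the labels used here, so the spread between libraries is that between pools. Fewer cells of a type and less RNA per cell cannot be told apart in such tissue libraries. The total of expected counts was 1536327 to 3427221 in DO4, 2429293 to 4348873 in DO2 and 2524054 to 3478593 in DO8. A pair of libraries stood apart from the rest. DO4 library 1 was the shallowest and listed the fewest models, 17420 against 19786 to 21198 in the other 8. In DO2 library 3 the 10 most abundant models held 52.7% of the counts, against 12.9% to 19.1% elsewhere.

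Across all models tested, the 3 DO4 libraries lay above the 6 others for 152 (1.09%) and below them for 258 (1.85%). Requiring the 2-fold difference left 74 and 120 models. Requiring like means in DO2 and DO8 left 52 and 69, and the minimum mean level left 38 and 50. The limit on the DO8 level then left 38 and 49. The same rule with DO2 as the group standing apart took 46 models, 23 in each direction, and with DO8 it took 171, 100 higher and 71 lower. These counts share all 9 libraries, and the difference between them was not tested.

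DO4 was set against the mean of DO2 and DO8 with edgeR's quasi-likelihood test over all 13933 models. It called 0 models higher (0%) and 0 lower (0%) after Benjamini-Hochberg adjustment, with a smallest adjusted p of 0.277. At an unadjusted p under 0.05 it gave 466 models higher (3.34%) and 513 lower (3.68%), which included 36 of the 38 higher and 49 of the 49 lower members. DESeq2 called 17 models higher (0.0634% of 26805) and 55 lower (0.205%) after adjustment, and 679 (2.53%) and 763 (2.85%) without it. Of its adjusted calls, 2 were higher and 12 were lower members. The 26805 were the models given a p-value, and DESeq2's default filter on mean counts can leave some of them out of the adjustment. Limma on log2(FPKM + 1) called 0 higher (0%) and 2 lower (0.0107% of 18650), none of them a member, and gave 455 (2.44%) and 417 (2.24%) at an unadjusted p under 0.05. The members were chosen on this same contrast, so their counts in it add nothing to the choice.

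**Figure D1:**
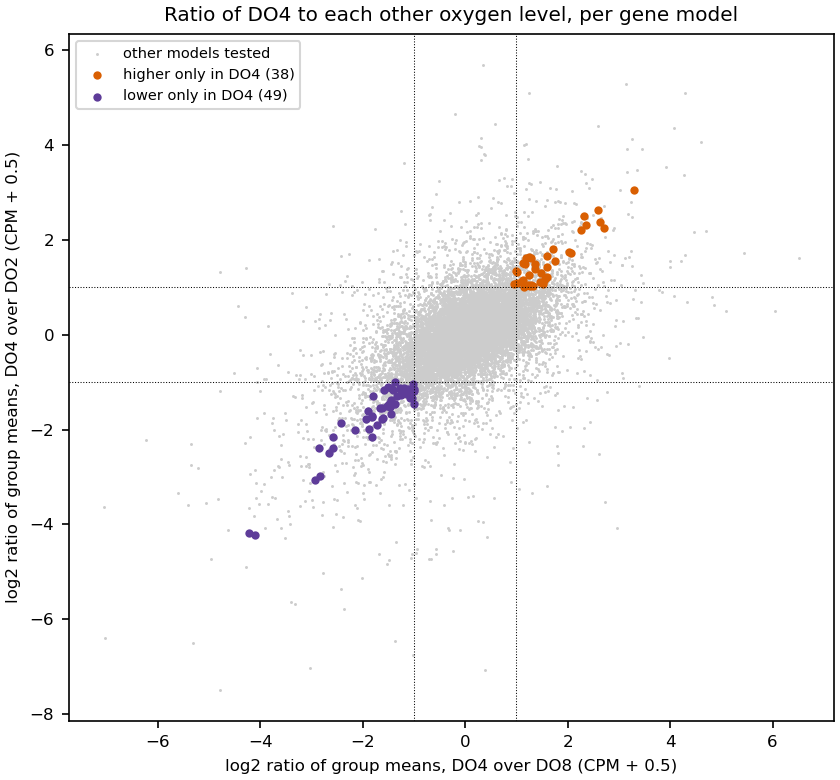
Log2 ratio of group means (with 0.5 CPM added) of DO4 over DO8 (x axis) and of DO4 over DO2 (y axis) for every model tested. Dotted lines mark a 2-fold ratio, and the 38 higher and 49 lower models lie near the diagonal in opposite corners, as the rule fixes, among other models with equal or larger ratios.

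Most of these models were shifted modestly. The smaller of each model's folds against the DO2 and the DO8 mean was 2.41 in the median for the higher models, and 26 of 38 lay under 3-fold. For the lower models the median was 2.84, with 27 of 49 under 3-fold. The gap between the groups was narrower than the folds. The lowest DO4 library was 1.19 times the highest DO2 or DO8 library in the median of the higher models, and at most 1.91 times. For the lower models, the lowest DO2 or DO8 library was 1.41 times the highest DO4 library in the median, and over 2 times for 5 of 49. A gap under 1.2 times was found for 19 of the 38 higher and 14 of the 49 lower models.

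**Figure D2:**
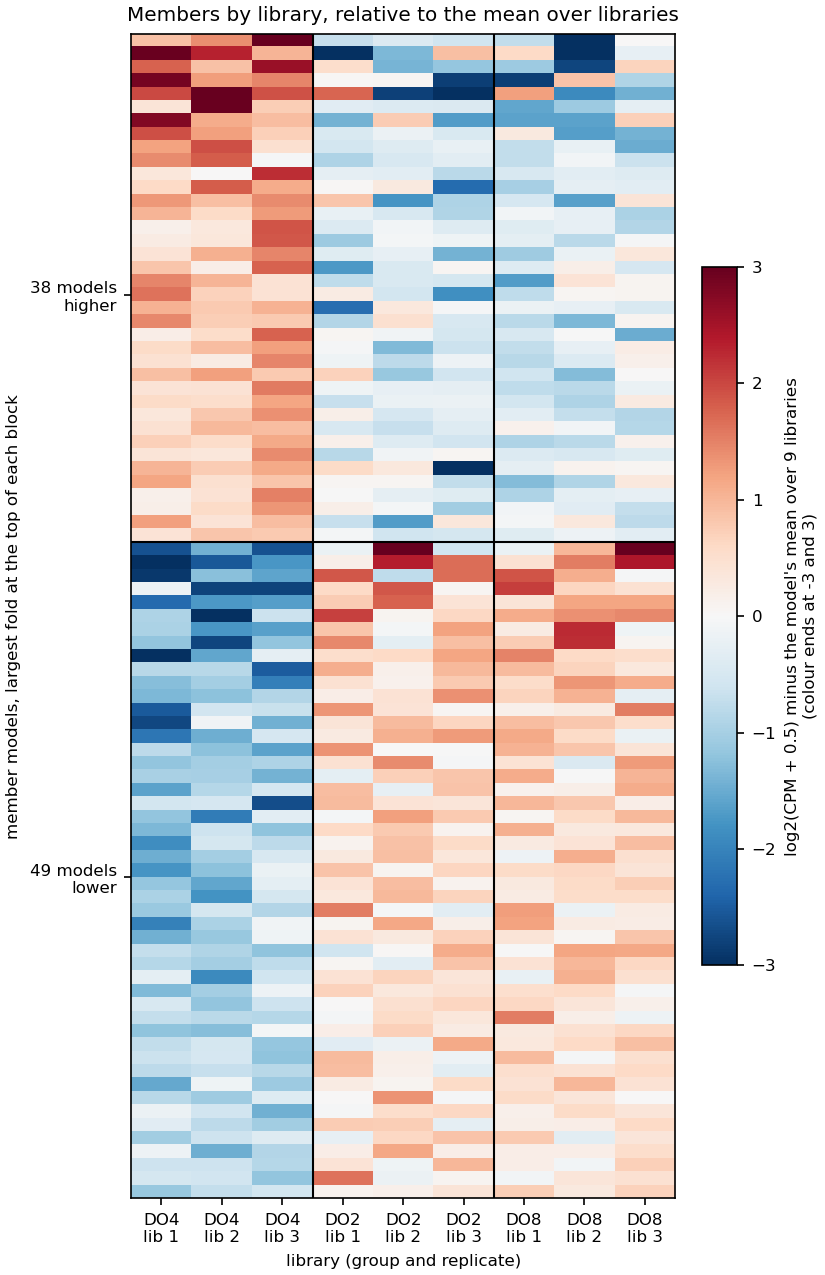
Level of each of the 87 models (rows) in each library (columns: DO4, DO2 and DO8, libraries 1 to 3), as log2(CPM + 0.5) minus the model's mean over the 9 libraries. By the rule, the DO4 columns of each row lie on one side of the other 6 columns, though not always on the other side of the row's mean. The strongest colours of the higher block often stand in 1 DO4 library, with DO4 library 3 the highest for 21 of 38.

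The higher models were led by evm.model.scaffold425.19, which had 9.36, 13.7 and 65.4 CPM in the DO4 libraries, against 2.82, 3.57 and 3.04 CPM in DO2 and 2.70, 0 and 4.89 CPM in DO8. All DO4 libraries were above the rest, but library 3 was far above its fellows. The DO4 mean was 9.38-fold that of DO2 and 11.6-fold that of DO8, and the smaller fold was 3.67 without DO4 library 3. This model is short, at 345 bases, and none of its expected counts was a whole number. Fractional counts are usual where reads are divided among models, but how they arose here was not tested.

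Several of the most shifted models were near 0 in some DO2 and DO8 libraries. Model evm.model.scaffold117.39 had 33.2, 20.7 and 8.18 CPM in DO4, against 0, 1.19 and 7.59 CPM in DO2 and 5.95, 0 and 3.15 CPM in DO8. Its lowest DO4 library was only 1.08 times its highest DO2 library, and its smaller fold of 6.82 was 4.54 without DO8 library 2. Model evm.model.scaffold689.5 had 11.1, 5.72 and 19.9 CPM in DO4, against 4.39, 0.79 and 1.01 CPM in DO2 and 1.08, 0 and 4.89 CPM in DO8. Model evm.model.scaffold1631.2 had 25.5, 7.94 and 9.34 CPM in DO4, against 3.14, 3.17 and 0 CPM in DO2 and 0, 5.95 and 1.40 CPM in DO8. Here DO4 library 1 carried most of the difference, since the smaller fold of 5.83 was 3.53 without it. In all, 6 of the 38 higher models had no count in at least 1 DO2 or DO8 library, where a count of 0 allows 0.811 CPM (DO8 libraries 1 and 2) to 1.52 CPM (DO2 library 3), taken as 3 counts per library and covering counting error only.

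In 2 models a library of each of the other groups came close to the DO4 level while the rest stayed low. Model evm.model.scaffold530.8 had 34.9, 95.6 and 32.9 CPM in DO4, against 29.5, 0.79 and 0 CPM in DO2 and 20.6, 1.89 and 2.80 CPM in DO8. Its counts were whole numbers wherever it was listed, and the smaller fold of 5.40 was 3.36 without DO4 library 2 and 3.60 without DO2 library 3. Model evm.model.scaffold855.8 had 66.4, 20.3 and 17.99 CPM in DO4, against 3.14, 15.8 and 2.53 CPM in DO2 and 2.70, 2.70 and 15.4 CPM in DO8. The group means of 34.9 ± 27.3 CPM in DO4, 7.17 ± 7.52 CPM in DO2 and 6.93 ± 7.32 CPM in DO8 (SD, n = 3 each) thus go with SDs as large as the means in DO2 and DO8, and the smaller fold of 4.87 was 2.67 without DO4 library 1.

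The other models with a large fold were steadier in DO2, though less so in DO8. Model evm.model.scaffold1045.7 had 12.8, 79.8 and 16.6 CPM in DO4, against 7.53, 7.13 and 7.08 CPM in DO2 and 2.98, 4.33 and 8.04 CPM in DO8. Its 5.02-fold smaller ratio was 2.02 without DO4 library 2. Model evm.model.scaffold772.12, with whole counts in all 9 libraries, had 15.3, 9.22 and 6.31 CPM in DO4, against 2.51, 3.17 and 2.53 CPM in DO2 and 4.599, 0.81 and 1.05 CPM in DO8. Its smaller fold of 3.76 did not move by over 1.5 times when any library was left out. Its DO8 mean was 2.15 ± 2.12 CPM (SD, n = 3). The mean over all 9 libraries was 5.06 CPM, close to the limit of 5, and it met the rule under 5 of the 9 omissions of 1 library. Model evm.model.scaffold642.9 had 11.9, 20.02 and 7.01 CPM in DO4, against 3.14, 3.57 and 4.05 CPM in DO2 and 2.70, 4.06 and 1.40 CPM in DO8. Model evm.model.scaffold1717.1 had 16.2, 21.6 and 5.61 CPM in DO4, against 2.82, 3.96 and 4.55 CPM in DO2 and 3.25, 5.41 and 3.50 CPM in DO8. Both were above 3.5-fold in the smaller ratio, at 3.62 and 3.57, but for evm.model.scaffold1717.1 DO4 library 3 was only 1.04 times the highest DO8 library.

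The most abundant of the higher models came next in the naming rule. Model evm.model.scaffold817.5, the first of these, had 158, 168 and 486 CPM in DO4, against 62.4, 128 and 121 CPM in DO2 and 108, 76.0 and 129 CPM in DO8. Its smaller fold of 2.59 was 1.56 without DO4 library 3, below the 2-fold limit. Model evm.model.scaffold1943.5 likewise had 102, 103 and 227 CPM in DO4, against 70.2, 64.2 and 63.7 CPM in DO2 and 44.6, 43.5 and 66.8 CPM in DO8. Here too library 3 was the high one within DO4, and the smaller fold of 2.18 was 1.55 without it.

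Model evm.model.scaffold615.1 was the most even of the higher models within DO4, with 229, 192 and 229 CPM there, against 22.6, 139 and 109 CPM in DO2 and 98.5, 94.4 and 80.4 CPM in DO8. The group means were 216 ± 21.5 CPM in DO4, 90.4 ± 60.7 CPM in DO2 and 91.1 ± 9.46 CPM in DO8 (SD, n = 3 each), a 2.39-fold and a 2.38-fold ratio. DO2 library 1 was the low one, and without it the smaller fold was 1.74, below the 2-fold limit. All DO4 libraries were at least 1.37 times every other library. Model evm.model.scaffold651.7 was also even in DO4, at 12.8, 10.5 and 13.8 CPM, against 9.09, 7.53 and 0 CPM in DO2 and 4.87, 6.49 and 6.29 CPM in DO8. Without DO2 library 3, where it was not seen, its smaller fold of 2.10 was 1.49. Model evm.model.scaffold82.13 had 10.2, 13.7 and 13.3 CPM in DO4, against 7.21, 4.76 and 5.06 CPM in DO2 and 5.68, 6.76 and 5.94 CPM in DO8. It was the higher member nearest the 2-fold limit, at 2.02-fold over DO8. Just outside that limit lay evm.model.scaffold659.7, at 35.3 CPM in DO4, 17.7 CPM in DO2 and 15.1 CPM in DO8 on average, with a smaller fold of 1.996.

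**Figure D3:**
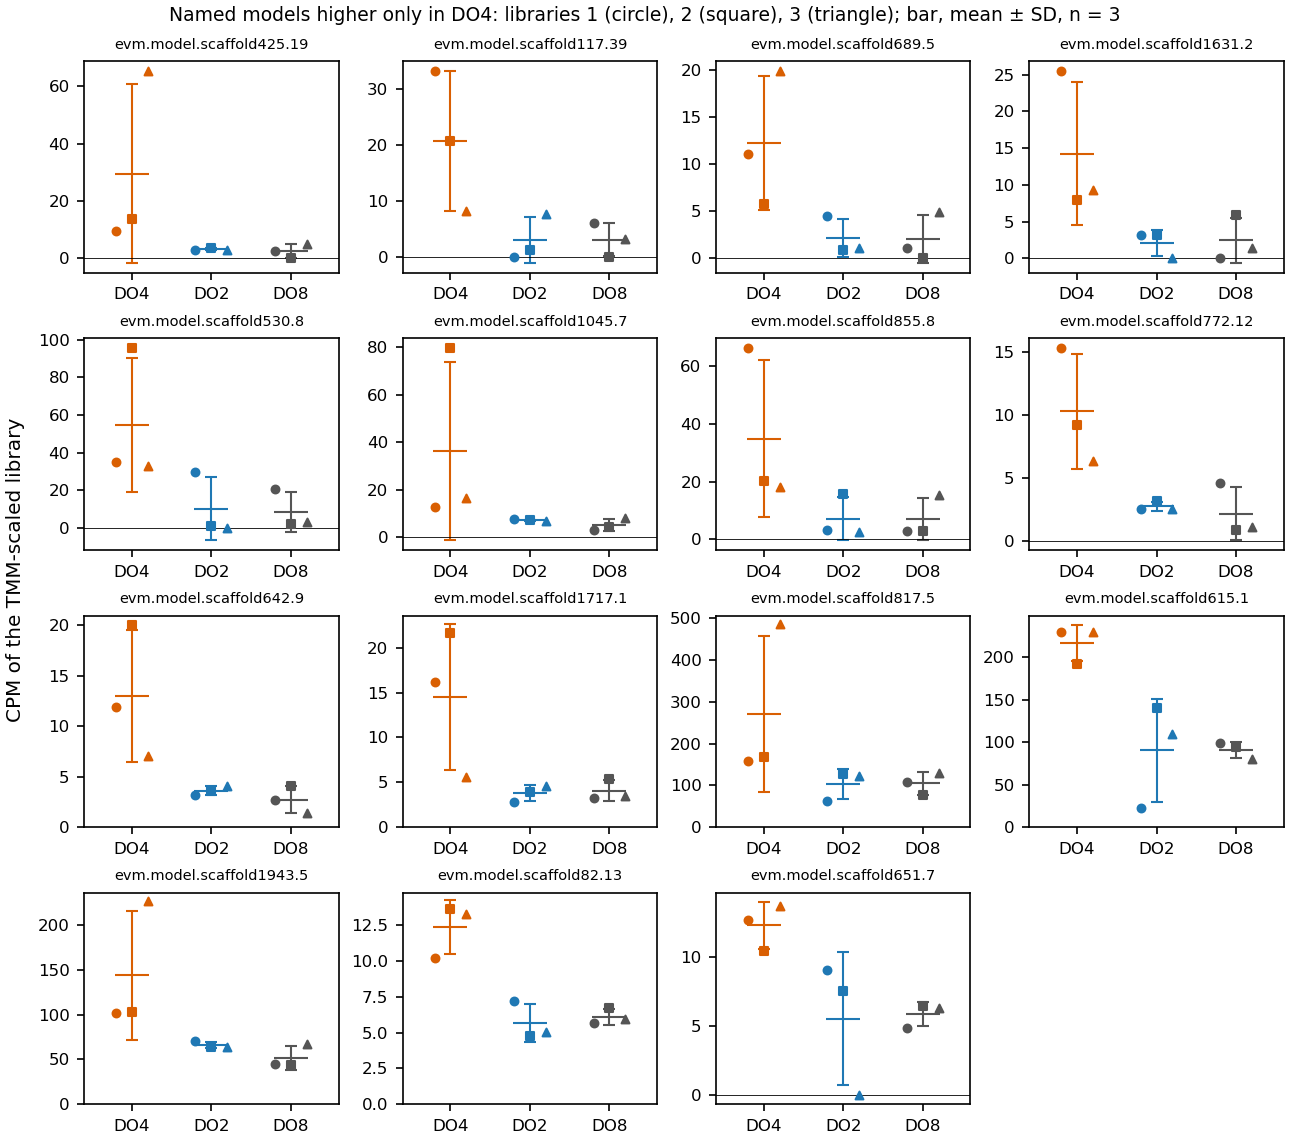
CPM of 15 models higher in DO4, one panel each with its own linear axis, for DO4, DO2 and DO8 from left to right. Points are libraries and bars are mean ± SD (n = 3), and in panels such as evm.model.scaffold425.19 (65.4 CPM in DO4 library 3) a single library lifts the DO4 mean, while evm.model.scaffold615.1 is even across DO4 at 192 to 229 CPM.

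The lower models held the larger shifts. Model evm.model.scaffold163.2 was nearly absent from DO4, with 0, 1.27 and 2.57 CPM, against 11.0, 51.9 and 32.4 CPM in DO2 and 13.5, 29.2 and 54.9 CPM in DO8. The lowest DO2 or DO8 library was 4.27 times the highest DO4 library. The mean was 24.8-fold lower in DO4 than in DO2 and 25.4-fold lower than in DO8, and the smaller fold was 16.5 without DO4 library 1 and 50.0 without DO4 library 3. Model evm.model.scaffold20.12 had 0, 0.64 and 0 CPM in DO4, against 2.19, 34.5 and 1.52 CPM in DO2 and 2.16, 5.68 and 27.3 CPM in DO8. A count of 0 in DO4 library 1 allows up to 2.55 CPM, above its level in DO2 libraries 1 and 3 and DO8 library 1. Only 2 counts were seen in all DO4 libraries together and 204 in the other 6, so that the summed level was 48.9-fold lower in DO4 (13.4 to 406.5 as the exact 95% interval of counting error). That ratio rested on 2 libraries, DO2 library 2 and DO8 library 3, and the smaller fold of the means was 8.76 without the first and 18.5 without the second.

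Model mRNA.scaffold249.extract.exonerate.1518 combined a large shift with even DO4 libraries. It had 9.36, 14.6 and 15.4 CPM in DO4, against 84.0, 171 and 66.3 CPM in DO2 and 64.9, 112 and 112 CPM in DO8. The means were 13.1 ± 3.29 CPM in DO4, 107 ± 55.9 CPM in DO2 and 96.5 ± 27.4 CPM in DO8 (SD, n = 3 each), so that DO4 was 8.15-fold below DO2 and 7.35-fold below DO8. Every DO2 and DO8 library was at least 4.21 times every DO4 library, its counts were whole numbers in all 9 libraries, and the smaller fold moved by under 1.5 times whichever library was left out.

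Model evm.model.scaffold1473.8 had 1.70, 6.36 and 4.91 CPM in DO4, against 59.0, 9.11 and 51.6 CPM in DO2 and 59.8, 34.3 and 15.4 CPM in DO8. The DO2 and DO8 libraries themselves ranged over more than 6-fold, and the smaller fold of the means was 8.45. Model evm.model.scaffold365.15 had 17.0, 5.40 and 16.8 CPM in DO4, against 107, 32.1 and 73.4 CPM in DO2 and 66.5, 185 and 41.3 CPM in DO8. Model evm.model.scaffold1106.3 had 8.51, 0 and 10.5 CPM in DO4, against 70.2, 17.8 and 25.8 CPM in DO2 and 36.8, 44.3 and 46.2 CPM in DO8. Its smaller fold of 5.99 was 3.44 without DO2 library 1 and 3.99 without DO4 library 2, the library in which it was not seen.

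Other lower models with large folds were scarce everywhere, and their DO4 values rest on few reads. Model evm.model.scaffold796.22 had 2.55, 0 and 0 CPM in DO4, against 4.70, 11.9 and 3.04 CPM in DO2 and 13.8, 4.87 and 4.20 CPM in DO8. The DO4 mean was 7.69-fold below that of DO2 and 8.95-fold below that of DO8. The smaller fold was 4.55 without DO2 library 2 and 5.12 without DO4 library 2 or 3, and none can be given without DO4 library 1, which held all 3 of its DO4 counts. Against 132 counts in the other libraries, the summed level was 21.1-fold lower in DO4 (7.06 to 103.6 as the exact 95% interval of counting error). Model evm.model.scaffold69.16 had 2.55, 1.27 and 1.40 CPM in DO4, against 10.04, 5.15 and 13.2 CPM in DO2 and 6.49, 27.6 and 4.89 CPM in DO8. Without DO8 library 2 its smaller fold of 5.42 was 3.27. Model add.evm.model.scaffold387.14 had 0, 0.95 and 3.04 CPM in DO4, against 5.64, 5.94 and 9.11 CPM in DO2 and 11.4, 5.95 and 5.59 CPM in DO8, and its smaller fold of 5.19 was 14.5 without DO4 library 3. Model evm.model.scaffold140.45 had 2.55, 2.54 and 0.47 CPM in DO4, against 11.0, 5.55 and 10.1 CPM in DO2 and 10.01, 8.11 and 6.29 CPM in DO8. Under 10 counts in DO4 library 1 lay behind 29 of the 49 lower models and 2 of the 38 higher ones. Choosing models by low or high DO4 levels largely fixes that difference. A count of 0 allows up to 2.55 CPM in DO4 library 1.

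The 3 most abundant lower models had at least 117 counts behind every value. Model evm.model.scaffold2895.1 had 106, 55.9 and 194 CPM in DO4, against 230, 565 and 412 CPM in DO2 and 250, 356 and 471 CPM in DO8. Model evm.model.scaffold689.8 had 99.6, 55.6 and 135 CPM in DO4, against 240, 378 and 306 CPM in DO2 and 229, 284 and 282 CPM in DO8. Within DO4 both were lowest in library 2 and highest in library 3. Model add.evm.model.scaffold708.2 had 134, 180 and 201 CPM in DO4, against 318, 328 and 382 CPM in DO2 and 493, 360 and 473 CPM in DO8. At 2.003-fold below DO2 it was the lower member nearest the limit, and every DO2 and DO8 library was at least 1.59 times every DO4 library. It met the rule under 0 of the 4 other scalings tried. Just outside lay evm.model.scaffold1698.7, at 37.7 CPM in DO4, 75.2 CPM in DO2 and 83.2 CPM in DO8 on average, with a smaller fold of 1.994.

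The lower models with the most even DO4 libraries were evm.model.scaffold63.27, evm.model.scaffold1111.10 and evm.model.scaffold138.23. The first had 3.40, 3.18 and 3.04 CPM in DO4, against 5.64, 9.11 and 7.59 CPM in DO2 and 18.1, 6.76 and 5.24 CPM in DO8, from 4, 10 and 13 counts in DO4. Model evm.model.scaffold1111.10 had 6.81, 7.31 and 6.54 CPM in DO4, against 23.5, 13.5 and 9.61 CPM in DO2 and 17.3, 16.5 and 18.5 CPM in DO8. Model evm.model.scaffold138.23 had 17.0, 19.1 and 20.3 CPM in DO4, against 53.9, 105 and 37.9 CPM in DO2 and 53.3, 28.7 and 95.1 CPM in DO8. For all 3 the SD in DO4 was below that in either other group, which their choice for even DO4 libraries largely fixes. A lower mean also goes with a lower SD in CPM. For evm.model.scaffold1111.10 the SD was 0.39 CPM in DO4, against 7.18 CPM in DO2 and 1.03 CPM in DO8. Its SD of log2 CPM was 0.074 in DO4, 0.62 in DO2 and 0.081 in DO8.

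**Figure D4:**
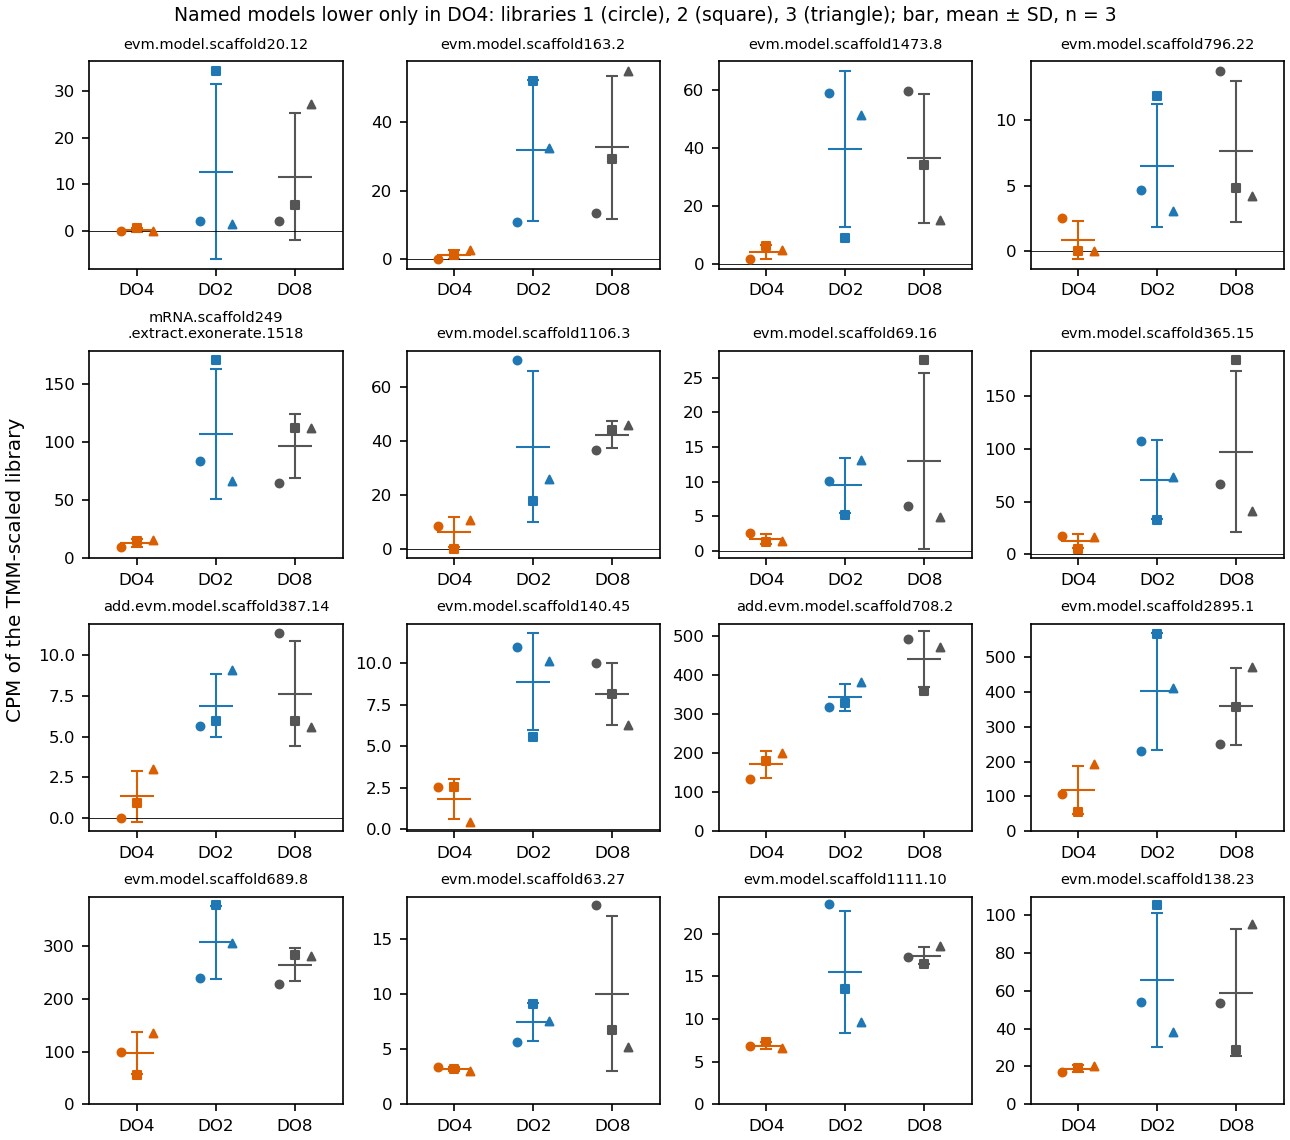
CPM of 16 models lower in DO4, one panel each with its own linear axis, for DO4, DO2 and DO8 from left to right. Points are libraries and bars are mean ± SD (n = 3), with DO4 below every other library in each panel, from evm.model.scaffold20.12 (0 to 0.64 CPM in DO4) to add.evm.model.scaffold708.2 (134 to 201 CPM in DO4).

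The remaining members filled the range between these. The higher models averaged 5.06 to 160 CPM over the 9 libraries, with a median of 12.0. The lower ones averaged 5.004 to 319 CPM, with a median of 19.5. The median was 17.3 CPM over the 11119 models tested with a mean of at least 5 CPM, as the rule requires. It was 12.5 CPM over all models tested. Per kilobase of model length, the median higher model was at 21.1 CPM in DO4, 7.21 in DO2 and 6.87 in DO8. The median lower model was at 8.59 CPM per kilobase in DO4, 24.8 in DO2 and 25.9 in DO8. Over all models tested, including those with a mean under 5 CPM, these medians were 12.0, 11.8 and 12.1. The ratio of the DO2 mean to the DO8 mean, which the rule limits, ran from 0.715 to 1.42 in the higher and from 0.677 to 1.41 in the lower models. DO2 was above DO8 for 20 of 38 and for 22 of 49.

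Within DO4, the high library was not spread evenly over the 3 for the higher models. Library 3 was the highest of DO4 for 21 of 38 (55.3%), library 1 for 9 and library 2 for 8, while library 3 was highest for 34.2% of all models tested. For 18 of the 38 a single library made up more than 50% of the DO4 sum, and in 11 of those it was library 3. Library 3 was also the most often highest among the lower models, for 21 of 49 (42.9%). Library 1 was the lowest for 22 of 49 (44.9%), beside 40.3% of all models tested. Over the 11119 models with a mean of at least 5 CPM, library 1 was the lowest for 36.9%. The highest DO4 library was within 2 times the lowest for 13 of the 38 higher and 20 of the 49 lower models.

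The DO2 or DO8 library that came nearest to DO4 was a DO2 library for 21 of the 38 higher models, DO2 library 1 in 13 of them. For the lower models it was a DO2 library in 35 of 49, divided 12, 11 and 12 over DO2 libraries 1 to 3. These shares of 55.3% and 71.4% stood beside 58.6% and 69.0% of all models whose DO4 libraries lay wholly above or below. The median SD of log2 CPM was 0.61 in DO4, 0.45 in DO2 and 0.52 in DO8 for the higher models, and 0.55, 0.58 and 0.41 for the lower ones. Over the 11119 models tested with a mean of at least 5 CPM it was 0.69, 0.60 and 0.41.

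Features that the rule did not use were set beside those of the table as a whole, without a test. The median length was 1188 bases in the higher models (252 to 4080) and 999 bases in the lower ones (255 to 3240), beside 1032 bases over all models tested. Lengths were multiples of 3 for 94.7% and 95.9%, beside 93.7%, so that most are coding lengths. Identifiers beginning with add.evm made up 2 of the 38 (5.26%) and 2 of the 49 (4.08%), beside 2.73% of all tested. An exonerate identifier was held by 1 lower model. Expected counts were whole numbers, with no decimal part, in every library that listed the model for 15 of the 38 higher (39.5%) and 19 of the 49 lower models (38.8%), beside 43.1% of all tested. The other members had fractional counts in at least 1 library, and the level of such a model alone is less certain if reads were divided among models. Over the 11119 models with a mean of at least 5 CPM, the share with whole counts was 44.9% and the median length 1065 bases.

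The members were scattered over the assembly. The 38 higher models lay on 36 scaffolds and the 49 lower ones on 48, and no pair had consecutive numbers. Models evm.model.scaffold530.4 and evm.model.scaffold530.8 were both higher, as were evm.model.scaffold855.5 and evm.model.scaffold855.8, and add.evm.model.scaffold387.14 and evm.model.scaffold387.22 were both lower. Scaffold 689 held a higher member, evm.model.scaffold689.5, and a lower one, evm.model.scaffold689.8.

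The models numbered 1 below or 1 above each member were also examined where their identifiers allowed it. Of 54 such neighbours of lower members that were tested, 11 (20.4%) had a log2 ratio of DO4 to the mean of DO2 and DO8 of -1 or less, beside 9.06% of all models tested. They belonged to 9 members. The median of the 54 neighbours was -0.03, beside 0.01 over all models, and 28 were lower and 26 higher in DO4. Of the 27 tested neighbours of higher members, 1 (3.7%) had a log2 ratio of 1 or more, beside 6.18% of all models tested, and 2 had -1 or less.

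The models named in the next sentences were chosen after their values were seen. No count of non-overlapping neighbours was made for the higher members. The DO4 libraries lay wholly below the other 6 for 4 of the 54 neighbours of lower members (7.41%), beside 1.85% of all models tested. Of these 4, 3 were among the 11 shifted ones. Model evm.model.scaffold1106.2, next to evm.model.scaffold1106.3, had 16.2, 28.9 and 19.9 CPM in DO4, against 66.5, 37.6 and 37.4 CPM in DO2 and 36.2, 54.3 and 37.1 CPM in DO8. Its counts were whole in all 9 libraries, and those of evm.model.scaffold1106.3 in all 8 that listed it. Model evm.model.scaffold223.34, next to the lower member evm.model.scaffold223.33, had 5.10, 10.5 and 7.01 CPM in DO4, against 27.9, 15.8 and 13.7 CPM in DO2 and 36.2, 27.3 and 25.5 CPM in DO8. It was not a member because its DO2 and DO8 means differed by more than 1.5-fold. The last of the 3, evm.model.scaffold2297.3, was scarce, with 1.70, 1.91 and 1.64 CPM in DO4. The neighbour with the lowest ratio, evm.model.scaffold1473.7, rested on 1 library. It had 0, 8.26 and 3.27 CPM in DO4, against 298, 0.40 and 6.07 CPM in DO2 and 1.08, 12.7 and 0 CPM in DO8. Of the 11 shifted, counts were also whole in 9 libraries for evm.model.scaffold223.34 and evm.model.scaffold233.10. They were whole in 2 for evm.model.scaffold2297.3 and in 0 for evm.model.scaffold1473.7, evm.model.scaffold1148.8, evm.model.scaffold1148.10, evm.model.scaffold138.24, evm.model.scaffold2297.1, evm.model.scaffold796.21 and evm.model.scaffold986.15. Some were near 0 in DO4, such as evm.model.scaffold796.21 with 0, 0 and 2.80 CPM. Among the higher members, evm.model.scaffold615.1 was the one with a neighbour shifted the same way. That neighbour, evm.model.scaffold615.2, had 10.2, 32.4 and 29.9 CPM in DO4, against 9.09, 2.77 and 13.7 CPM in DO2 and 10.3, 11.1 and 10.1 CPM in DO8, so DO4 library 1 was at the level of the other groups.

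**Figure D5:**
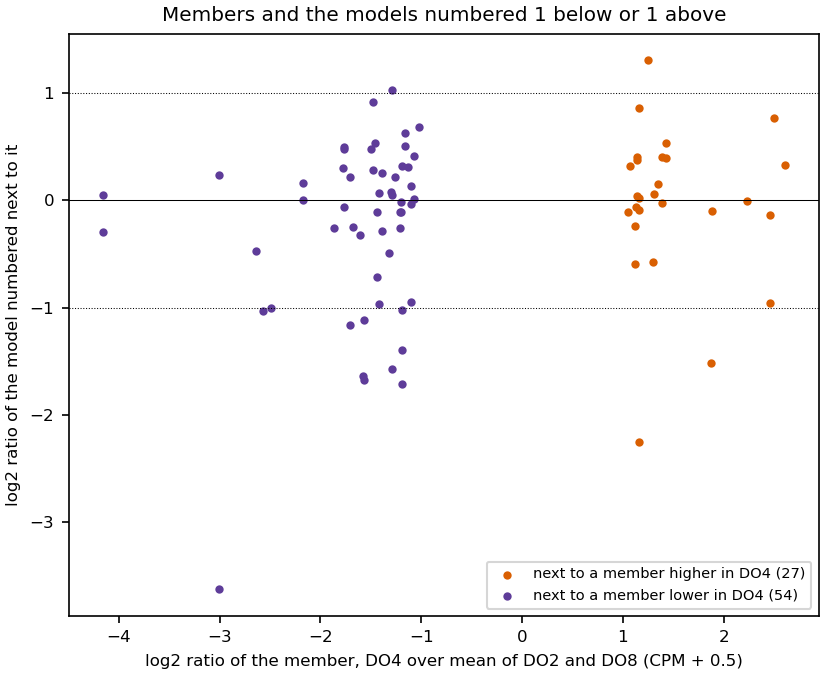
Log2 ratio of DO4 over the mean of DO2 and DO8 for each member (x axis) and for the tested model numbered 1 below or 1 above it (y axis), with 0.5 CPM added. Points beside lower members (54) reach down to -3.62 (evm.model.scaffold1473.7, where DO2 library 1 alone was high), with 11 at or below -1, while the median lies near 0 on both sides.

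Membership depended on each library. With 1 library left out and the rule applied again, 18 (without DO4 library 3) to 33 of the 38 higher models and 37 to 46 of the 49 lower models met it. On the CPM of all 9 libraries, the smaller fold was below 2 without some library for 25 of the 38 higher and 19 of the 49 lower models. Among those named were evm.model.scaffold1111.10 (1.68 without DO2 library 1) and evm.model.scaffold63.27 (1.87 without DO8 library 1). None of the higher models met the rule under all 9 omissions, and 19 of the lower ones did. On deposited FPKM scaled to equal sums, without TMM factors, 8 of the 38 and 12 of the 49 met the rule. The limits of 5 and 1000 were applied there to length-scaled values, so a long model could fail on level alone. This also bears on the count under all 4 scalings below, and its share in the loss was not tested. Under all 9 omissions and all 4 other scalings tried (DESeq2 size factors, upper-quartile factors, FPKM and equal depth) 5 lower models and 0 higher models met it. The 5 were mRNA.scaffold249.extract.exonerate.1518, evm.model.scaffold2895.1, evm.model.scaffold689.8, evm.model.scaffold137.8 and evm.model.scaffold149.14, the last 2 named here for that reason. Model evm.model.scaffold137.8 had 1.70, 1.91 and 2.57 CPM in DO4, against 5.96, 7.13 and 14.2 CPM in DO2 and 8.39, 11.1 and 4.20 CPM in DO8. Model evm.model.scaffold149.14 had 4.26, 11.4 and 9.58 CPM in DO4, against 18.2, 31.3 and 25.3 CPM in DO2 and 20.3, 22.4 and 32.5 CPM in DO8. With both DO2 library 3 and DO4 library 1 left out, 24 of the 38 and 37 of the 49 met the rule.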

How the data were processed

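Per the labels' protocols, poly(A) RNA was fragmented, copied with random primers and sequenced on the BGISEQ-500. The deposited tables give, per the file headers, a model identifier, a length, an expected count (the authors' estimated reads per model, not normalized) and FPKM, computed by the authors. The submitters' processing notes name CASAVA 1.5. The aligner, annotation, genome build and counting program were not given in the sources used here.

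Models that a table did not list were taken as 0. Expected counts were rounded, filtered with filterByExpr by group (13933 of 27214 models, 98.9% of the counts) and scaled with TMM in edgeR 4.0.16 (R 4.3.3). DO4 was tested against the mean of DO2 and DO8 with the quasi-likelihood test (robust, 1 coefficient per group, all 9 libraries) and a Benjamini-Hochberg threshold of 0.05. DESeq2 1.42.0 and limma 3.58.1 on FPKM were alternatives. Log2 ratios of means used 0.5 CPM added, and SDs of log2 CPM a prior count of 2. The tests and the rule were tried on simulated data. With no difference between groups and 1 wide spread for all models the rule picked no fewer models than it did here, and far fewer with a narrow spread. The biological coefficient of variation estimated from these libraries was 61.1%, and the wide spread was set close to it. A pool of 3 animals is the replicate, and labels state no tank or batch, so a p-value reflects only how pools differ.

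Members, tests and alternatives were chosen with earlier results of these data known. Models were named by a rule: in each direction the 10 with the largest smaller fold, the 3 most abundant, the 3 most even in DO4, those nearest the 2-fold limit, and any with consecutive numbers (there were 0). Other models are named as chosen after their values were seen. No separate test of single outlying libraries was made in groups of 3. DESeq2's default screen for outlying counts was left on, and 37 of the 38 higher members had a p-value in that fit.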

Additional observations from a re-analysis of the deposited data

How the results depend on the processing

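The numbers of members under other settings are counts of models that meet the rule, not all of them the same models. On FPKM, the limits on level were applied to length-scaled values. For the higher models the count of 38 was 42 with DESeq2 size factors, 48 with upper-quartile factors, 35 without the filter on low counts, 34 on FPKM and 40 at equal depth. It was 12 at a 3-fold minimum, 23 with a stricter limit on the ratio of DO2 to DO8 and 22 at a mean of at least 10 CPM. For the lower models the count of 49 was 32 on FPKM, 22 at a 3-fold minimum and 95 with no limit on DO2 against DO8. It was 47, 47, 53 and 56 with DESeq2 size factors, upper-quartile factors, no filter and equal depth. Leaving out 1 library gave 32 (without DO8 library 3) to 181 (without DO4 library 1) higher and 57 (without DO8 library 1) to 238 (without DO4 library 1) lower models. A group of 2 libraries meets a rule on non-overlap more easily by construction. With DO2 library 3 and DO4 library 1 both left out it was 233 and 233.

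The 0 models called for DO4 against the mean of DO2 and DO8 became 1 without the filter, 2 by limma on log2(FPKM + 1), 2 on log2(FPKM + 0.1), 1 without the FPKM filter and 72 by DESeq2. It was 0 to 1 when 1 library was left out, and 0 with DESeq2 size factors, upper-quartile factors, equal depth and both libraries left out. For these settings the cause was not tested. Over all models the median log2 difference was 0.06 with TMM and 0.12 with upper-quartile factors. With the replicate number as a block the count was 0. Same-numbered libraries had correlations of deviations from group means of -0.169 to 0.068, with 0 of 9 pairs over 0.1, and 1 of 9 libraries correlated best with its own number, so the numbers were not taken as pairs. For the 31 named models, 458 of 465 log2 ratios under alternatives moved by less than the spread between libraries, 7 moved further and 0 were reversed, which the choice of non-overlapping models largely fixes.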

Other observations

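A pair of libraries from different groups, DO2 library 2 and DO8 library 3, was seen to be high together in some plots, and this was then counted. They were the 2 highest of the 6 libraries for 5 of the 38 higher models (13.2%) and 8 of the 49 lower models (16.3%), beside 6.38% of all models tested. For evm.model.scaffold20.12 and evm.model.scaffold855.8 both were over 2 times each of the other 4, as they were for 65 of the 13933 models tested (0.467%). The difference between these shares was not tested. The same held for evm.model.scaffold1319.7, numbered next to the higher member evm.model.scaffold1319.8. It had 5.96, 1.27 and 3.27 CPM in DO4, against 4.70, 47.5 and 2.02 CPM in DO2 and 1.08, 2.97 and 53.1 CPM in DO8. Over all models tested, the deviations of DO2 library 2 and DO8 library 3 from their group means correlated at 0.058. All pairs from different groups with different replicate numbers ranged from -0.048 to 0.128. The labels give nothing that DO2 library 2 and DO8 library 3 share.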
